A study of Saccharomyces cerevisiae with 24 samples.

Results

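The 10 genes described here encode permeases of the yeast plasma membrane, 9 for amino acids (GAP1, AGP1, GNP1, DIP5, BAP2, TAT2, MUP1, CAN1 and LYP1) and 1 for ammonium (MEP2). They were picked by name, each as the probe set whose platform annotation carries that gene symbol, and all 10 were found, with 1 probe set each, among the 5656 genes measured by probe sets naming 1 gene. Saccharomyces cerevisiae cultures in log phase, kept at 30°C in YPLG medium, received galactose to 2%, and total RNA was read on 24 Affymetrix YG_S98 arrays, 3 biological replicates (a, b and c) in each of 8 groups. YSS89 carries UASIFH1::HIS3-UASGAL1, so that its IFH1 gene, tagged as UASGAL1-IFH1-13myc-TRP1, stands under the galactose-driven activating sequence of GAL1, and it was sampled at 0, 20, 30, 40 and 60. YSS37, named wild-type in the labels, carries IFH1-13myc-TRP1 and was sampled at 0, 30 and 60. The labels give no unit for the times, and minutes are assumed. Both strains are MATa, both carry the tagged IFH1, and both received galactose, so no group stands for an untagged strain or for a culture kept without galactose over these times. With no such culture, the effects of galactose and of time in culture cannot be told apart.

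Yeast takes up amino acids through a family of proton-driven permeases, some of broad range and some nearly specific to 1 amino acid, and takes up ammonium through Mep proteins. A 3-protein sensor in the plasma membrane, Ssy1-Ptr3-Ssy5 (SPS), responds to amino acids outside the cell and releases the transcription factors Stp1 and Stp2, which turn on AGP1, GNP1, BAP2 and other permease genes. Nitrogen catabolite repression works on another set, with GAP1, DIP5 and MEP2 among them: when a good nitrogen source is present, the GATA activators Gln3 and Gat1 are held back and these genes stay low. IFH1 encodes a coactivator of ribosomal protein genes.

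Intensities are the deposited values, and all tests are on quantile-normalized log2 values with limma, with p-values adjusted over the 5656 genes and a gene called at an adjusted p under 0.05. The arrays were hybridized in 4 rounds, with 8 of the 9 YSS37 arrays in the first, 6 YSS89 arrays with YSS37 replicate c at 60 min in the second, and 7 YSS89 arrays in the third. The fourth held YSS89 replicates b and c at time 0 alone. On those last 2 arrays the 25S rRNA control read 313 and 90.9, against 560 to 1060 on the other 22. The a-cell gene MFA1 read 74.9 and 108.3 on these 2 arrays, 231 to 443.8 on the other 13 YSS89 arrays and 67 to 109.1 in YSS37. MFA2 read 398 and 385.7 on the same 2, 481.9 to 933 on the other 13 and 469.8 to 704.3 in YSS37. These are 2 of the 3 arrays of YSS89 at time 0, against which every change from time 0 in YSS89 is measured, and the part of what sets them apart was not tested. Other genes differed in this. STE2 read 77.1 and 99.6 on these 2 arrays, against 62.3 to 107.4 in YSS37, and BAR1 73.9 and 39.2, against 44.9 to 79.3. STE6 read 85.3 and 108.4, above its YSS37 range of 44.5 to 72. HIS3 (17.9 and 17.4) and TRP1 (446.1 and 490.5) also lay above YSS37 (3.1 to 13.5 and 280.5 to 386.2). Replicate a of YSS89 at time 0 read 105.3 for STE6, 15.5 for HIS3 and 442 for TRP1. The a-cell gene ASG7 read 0.5 to 17.2 in YSS89 and 1.1 to 12.9 in YSS37. The alpha-cell genes MF(ALPHA)1, MF(ALPHA)2 and STE3 read at most 10.2 in YSS89 and 12.5 in YSS37. IFH1 read 1365 ± 66.13 in YSS89 at 20 min and 572.3 ± 13.74 at 60 min, against 38.23 ± 4.366 in YSS37 at 60 min (SD, n = 3 each).

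**Figure D1:**
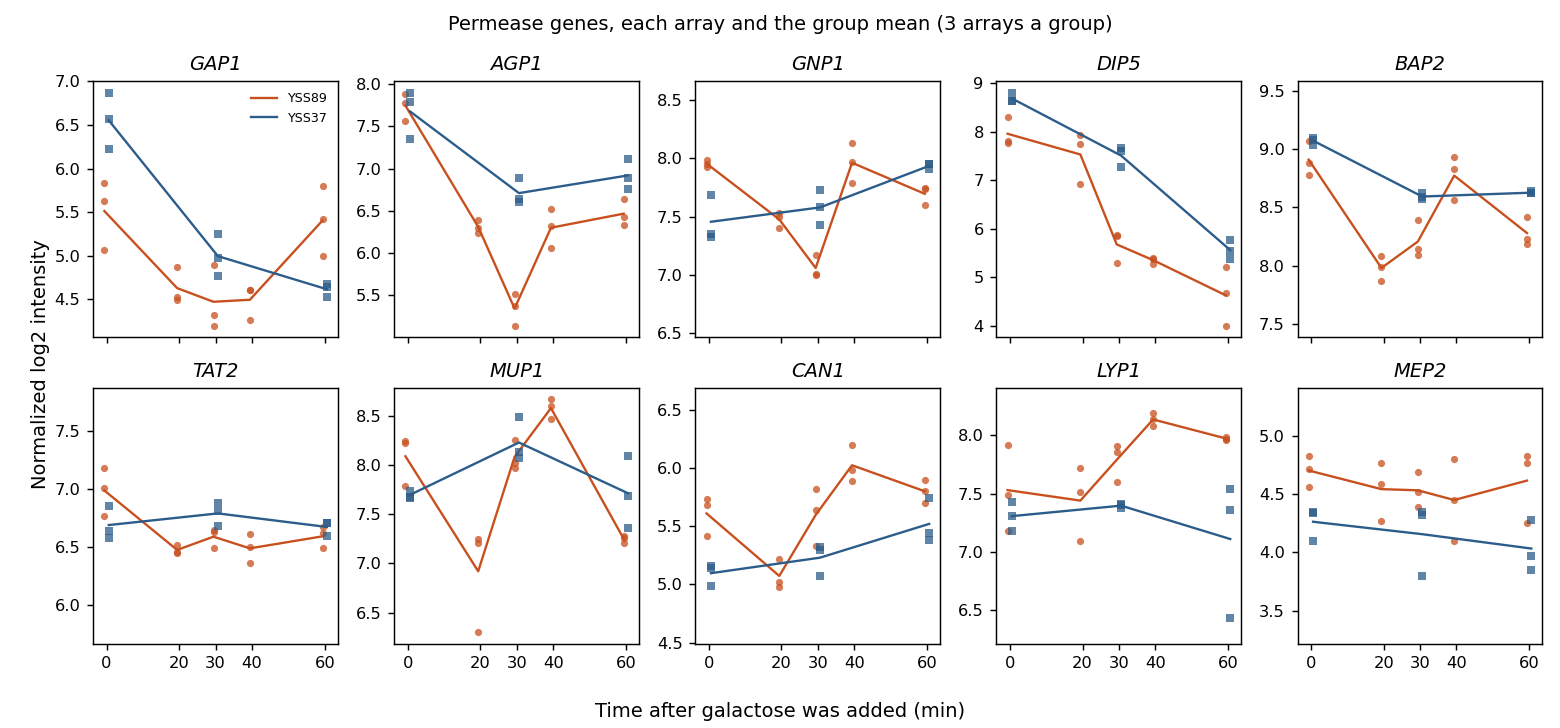
Normalized log2 intensity (vertical axis, with its own range in each panel) of the 10 permease genes against minutes after galactose was added, for YSS89 (orange circles) and YSS37 (blue squares); points are single arrays and lines join group means of 3 arrays. DIP5 reaches its own lowest point at 60 min in both strains, GAP1 turns up at 60 min in YSS89 and not in YSS37, and AGP1 and GNP1 reach their lowest point at 30 min in YSS89.

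After galactose more permease genes fell than rose in both strains, and the fall came at different times for different genes. In YSS89 at 20 min 7 of the 10 were lower than at time 0, namely AGP1, MUP1, BAP2, GAP1, CAN1, TAT2 and GNP1. The count was 3 (AGP1, MUP1 and BAP2) without the 2 arrays of low 25S signal, with the round as a block, and within 1 round. By limma 0 were higher, also at an unadjusted p under 0.05, where 10.4% of all genes were lower and 7.6% higher. At 30 min 6 were lower (AGP1, DIP5, GAP1, GNP1, BAP2 and TAT2) and 0 higher by limma, likewise at an unadjusted p, with 23.6% of all genes lower and 22.4% higher. At 40 min 4 were lower (DIP5, AGP1, GAP1 and TAT2) and 2 higher (LYP1 and CAN1), with 21.5% and 23.9% of all genes, and 3 were called without the 2 arrays or within 1 round. At 60 min 5 were lower (DIP5, AGP1, MUP1, BAP2 and TAT2) and 0 higher by limma, and at an unadjusted p 6 lower and 0 higher, with 19.8% and 23.9% of all genes. The median log2 changes of the 10 genes in YSS89 at 20, 30, 40 and 60 min were, in that order, -0.52, -0.55, -0.20 and -0.33, beside medians over all genes of -0.013, 0.013, 0.056 and 0.075. In YSS37 the same 4 genes, DIP5, GAP1, AGP1 and BAP2, were lower at 30 and at 60 min, and both comparisons share the arrays of time 0. Higher calls in YSS37 numbered 0 at 30 min by limma (1, MUP1, at an unadjusted p) and 2 at 60 min, GNP1 and CAN1. Over all genes 12.4% were lower and 14.4% higher in YSS37 at 30 min, and 20.5% and 21.1% at 60 min. The median of the 10 in YSS37 was -0.01 at 30 min and -0.21 at 60 min. RNA was drawn from whole cultures, so fewer cells carrying a transcript and less of it per cell cannot be told apart.

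The single steps within YSS89 showed a dip and a return for several of the genes. From 20 to 30 min MUP1 and CAN1 rose while DIP5, AGP1 and GNP1 fell, 2 and 3 of the 10, where 9% of all genes rose and 12.4% fell. From 30 to 40 min AGP1, GNP1 and BAP2 rose, 3 of the 10, where only 3.59% of all genes rose, and 0 of the 10 fell by limma, also at an unadjusted p, where 1.75% of all genes fell. From 40 to 60 min GAP1 rose and MUP1 and BAP2 fell, where 0.796% of all genes rose and 1.29% fell. These 3 steps were added after the values had been seen. Over the longer step from 30 to 60 min GAP1, AGP1 and GNP1 rose and DIP5 and MUP1 fell in YSS89, beside 4.74% and 2.9% of all genes. Over the same step in YSS37 DIP5 fell, and 0 of the 10 rose by limma (2, GNP1 and CAN1, at an unadjusted p), beside 2.26% and 0.636%. At 20 min, when 7 genes were lower, the ratio of 3' to 5' signal of ACT1 was 1.52 to 1.58 on the YSS89 arrays, against 1.2 to 1.49 on the other 21, and its part in these values was not tested.

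GAP1, the general amino acid permease, carries nearly all amino acids and is the textbook target of nitrogen catabolite repression. In YSS89 its intensity was 35.1, 53 and 64.2 at time 0 (replicates a, b and c), 21.8, 20.7 and 27.7 at 20 min, 17.2, 18.6 and 28.8 at 30 min, 18.2, 24 and 23.9 at 40 min and 31.4, 43.6 and 57.5 at 60 min. On the YSS37 arrays GAP1 was 66.5, 114.1 and 94.1 at time 0, 29.9, 33.6 and 23.8 at 30 min and 21.5, 25 and 22.6 at 60 min. All arrays of the middle times in YSS89 lay below those of time 0, while the arrays of 60 min overlapped them, and in YSS37 both later groups stayed below time 0. GAP1 was lower in YSS89 at 20 min (log2 -0.88, adjusted p = 0.0114), 30 min (log2 -1.04, SE 0.229, adjusted p = 0.00104) and 40 min (log2 -1.01, adjusted p = 0.00123). Its change at 60 min was not called (log2 -0.11, SE 0.229, adjusted p = 0.735). In YSS37 it was 2.94-fold lower at 30 min (log2 -1.55, SE 0.229, adjusted p = 5.25e-05) and 3.83-fold lower at 60 min (log2 -1.94, SE 0.229, adjusted p = 1.52e-06). The rise from 30 to 60 min in YSS89 was called (log2 0.93, SE 0.229, adjusted p = 0.0145), with all 3 later arrays above the earlier ones. So was the rise from 40 to 60 min (log2 0.91, adjusted p = 0.0422), which missed the threshold without any 1 of 5 of the 6 arrays (adjusted p up to 0.223). The second round holds replicate a alone at time 0, 30, 40 and 60 min, and the spread for tests within it came from all arrays. Within it the changes in YSS89 were not called, at log2 -0.56, adjusted p = 0.338 at 20 min, log2 -0.87, adjusted p = 0.0814 at 30 min and log2 -0.80, adjusted p = 0.0975 at 40 min. Without both arrays of low 25S signal they were log2 -0.44, adjusted p = 0.452 at 20 min, log2 -0.59, adjusted p = 0.148 at 30 min and log2 -0.57, adjusted p = 0.164 at 40 min. The rise from 30 to 60 min missed the threshold without YSS89 replicate a (log2 0.79, adjusted p = 0.0707) or b (log2 0.85, adjusted p = 0.0668) at 30 min, or c at 60 min (log2 0.74, adjusted p = 0.0911). The call at 20 min was lost without replicate c at time 0 (log2 -0.72, adjusted p = 0.068).

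Between the strains the order of GAP1 changed during the course. At time 0 it was 2.06-fold lower in YSS89 than in YSS37 (log2 -1.04, SE 0.229, adjusted p = 0.0019), with no overlap of arrays. At 30 min the difference was not called (log2 -0.52, SE 0.229, adjusted p = 0.0708). At 60 min GAP1 was 1.73-fold higher in YSS89 (log2 0.79, SE 0.229, adjusted p = 0.0146), again with no overlap. The change from time 0 to 60 min differed between the strains by 1.83 on the log2 scale (3.56-fold, SE 0.324, adjusted p = 0.000963), the only member whose response at 60 min was called higher in YSS89. The lower level of GAP1 in YSS89 at time 0 enters that difference. With the hybridization round as a block it was log2 2.02, adjusted p = 0.00177, and when each array was left out in turn it ran from 1.61 to 2.03. The direct differences did not keep their calls with the round as a block, at log2 -1.57, adjusted p = 0.0545 at time 0 and log2 0.44, adjusted p = 0.309 at 60 min. The difference at 60 min also missed the threshold without YSS89 replicate c (log2 0.60, adjusted p = 0.0889) and within 1 round (log2 0.32, adjusted p = 0.628). At 30 min the responses of GAP1 were not called different (log2 0.52, SE 0.324, adjusted p = 0.291).

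AGP1, a low-affinity permease of broad range and a target of the SPS pathway, fell deepest at 30 min in YSS89. Its intensity in YSS89 was 205.5, 249.9 and 239.6 at time 0, 82.3, 76 and 74.4 at 20 min, 44.5, 34.2 and 39.5 at 30 min, 92.7, 66.8 and 83 at 40 min and 88.4, 83.6 and 100.9 at 60 min. On the YSS37 arrays AGP1 was 164, 251.4 and 239.9 at time 0, 119.6, 87.5 and 94.1 at 30 min and 106.9, 130.7 and 113.7 at 60 min. Every later array lay below those of time 0 in its strain, and the 3 arrays of YSS89 at 30 min were the lowest of all 24. On the log2 scale the change in YSS89 was -1.44 at 20 min (adjusted p = 2.3e-06) and -2.40 at 30 min (SE 0.156, adjusted p = 5e-10, 5.29-fold lower). Then it was -1.45 at 40 min (adjusted p = 3.15e-07) and -1.28 at 60 min (adjusted p = 1.9e-06). The change in YSS37 was -0.97 at 30 min (adjusted p = 0.000125) and -0.76 at 60 min (adjusted p = 0.000598). The fall from 20 to 30 min (log2 -0.96, adjusted p = 0.000186) and the rise from 30 to 40 min (log2 0.95, adjusted p = 0.000944) in YSS89 were both called, with no overlap of arrays. Within the second round alone the fall from 20 to 30 min was not called (log2 -0.82, adjusted p = 0.075). There the change from time 0 in YSS89 was log2 -2.05, adjusted p = 0.000344 at 30 min and log2 -1.14, adjusted p = 0.0117 at 60 min.

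AGP1 did not differ by call between the strains at time 0 (log2 0.07, SE 0.156, adjusted p = 0.775). It was 2.58-fold lower in YSS89 at 30 min (log2 -1.37, SE 0.156, adjusted p = 1.57e-06) and 1.37-fold lower at 60 min (log2 -0.46, SE 0.156, adjusted p = 0.0347), with no overlap of arrays at either time. The response at 30 min was lower in YSS89 than in YSS37 (log2 -1.44, SE 0.221, adjusted p = 0.000188), the response difference at 30 min with the smallest adjusted p among the 10 genes. With the round as a block it was log2 -1.15, adjusted p = 0.0167. At 60 min the difference of responses was not called (log2 -0.53, SE 0.221, adjusted p = 0.118). The direct difference at 60 min lost its call with the round as a block (log2 -0.32, adjusted p = 0.414), within 1 round (log2 -0.46, adjusted p = 0.384) and as deposited (log2 -0.36, adjusted p = 0.101). It also lost it when any 1 of 4 arrays was left out (YSS89 replicate a or b, YSS37 replicate b or c, adjusted p up to 0.142).

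GNP1, a high-affinity glutamine permease and another SPS target, was lowest in YSS89 at 30 min and came back by 40 min, and in YSS37 it rose by 60 min. In YSS89 it read 269.9, 257.6 and 264.9 at time 0, 181.1, 165 and 175 at 20 min, 122.9, 137.9 and 119.5 at 30 min, 238.5, 208.3 and 269.4 at 40 min and 190.6, 211 and 207 at 60 min. For YSS37 GNP1 read 162.4, 218.2 and 173.1 at time 0, 216.9, 166.2 and 187.1 at 30 min and 251.3, 247 and 239 at 60 min. The YSS89 arrays of 30 min were the lowest of all, those of 40 min overlapped time 0 again, and in YSS37 the arrays of 60 min lay above those of time 0. GNP1 was lower in YSS89 at 20 min (log2 -0.48, adjusted p = 0.00615) and at 30 min (log2 -0.90, SE 0.113, adjusted p = 2.75e-06). The changes were not called at 40 min (log2 0.00, adjusted p = 0.985) and 60 min (log2 -0.26, adjusted p = 0.0698), though as deposited the value at 60 min was called (log2 -0.38, adjusted p = 0.0181). In YSS37 the change was not called at 30 min (log2 0.12, adjusted p = 0.473), and at 60 min GNP1 was higher (log2 0.48, SE 0.113, adjusted p = 0.00202). With each array centred on its median the value at 60 min was log2 0.25, adjusted p = 0.109. The fall from 20 to 30 min in YSS89 (log2 -0.42, adjusted p = 0.0133) missed the threshold without replicate c at 30 min (log2 -0.38, adjusted p = 0.0554) and within 1 round (log2 -0.46, adjusted p = 0.228). The rise from 30 to 40 min in YSS89 was 1.86-fold (log2 0.90, adjusted p = 7.21e-05).

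At time 0 GNP1 was higher in YSS89 (log2 0.50, SE 0.113, adjusted p = 0.00257) and at 30 min lower (log2 -0.52, SE 0.113, adjusted p = 0.00109), without overlap of arrays. At 60 min the difference was not called (log2 -0.24, adjusted p = 0.118), and with median centring it was log2 -0.36, adjusted p = 0.0344. The responses of GNP1 were lower in YSS89 at 30 min (log2 -1.02, SE 0.16, adjusted p = 0.000232) and at 60 min (log2 -0.74, SE 0.16, adjusted p = 0.00481). GNP1 was the 1 member called for this at both times. The higher level of GNP1 in YSS89 at time 0 enters both differences of responses. With the round as a block they were log2 -1.09, adjusted p = 0.00506 and log2 -0.83, adjusted p = 0.0479. The direct differences were not called with that block, at log2 0.57, adjusted p = 0.3 at time 0 and log2 -0.52, adjusted p = 0.144 at 30 min. The one at time 0 was log2 0.16, adjusted p = 0.323 with median centring and log2 0.53, adjusted p = 0.0569 without the 2 arrays of low 25S signal. Without the 2 arrays of low 25S signal the change in YSS89 at 20 min was log2 -0.52, adjusted p = 0.0771.

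DIP5, the permease of the acidic amino acids glutamate and aspartate, fell furthest of the 10 genes in both strains at 60 min. In YSS89 its intensity was 330.1, 228.4 and 244.3 at time 0, 120.2, 234.3 and 207.7 at 20 min, 38, 56.4 and 54.8 at 30 min, 41.7, 38.6 and 42.5 at 40 min and 14.8, 25 and 37.6 at 60 min. On the YSS37 arrays DIP5 was 422.8, 475 and 423.2 at time 0, 155.3, 194.7 and 189 at 30 min and 44.1, 51.7 and 37.5 at 60 min. The arrays of 20 min overlapped those of time 0 in YSS89, and those of 30 min and later lay below, as did both later groups of YSS37. DIP5 was 10.1-fold lower in YSS89 at 60 min (log2 -3.33, SE 0.26, adjusted p = 4.82e-09) and 8.69-fold lower in YSS37 (log2 -3.12, SE 0.26, adjusted p = 2.88e-08). At 20 min in YSS89 the change was not called (log2 -0.42, SE 0.26, adjusted p = 0.285). It was -2.28 at 30 min (adjusted p = 7.48e-07) and -2.60 at 40 min (adjusted p = 1.26e-07). The step from 20 to 30 min was called (log2 -1.86, SE 0.26, adjusted p = 4.29e-05). In YSS37 the change from time 0 was -1.17 at 30 min (adjusted p = 0.00211), and the step from 30 to 60 min was called (log2 -1.95, SE 0.26, adjusted p = 0.000176). In the second round alone the change in YSS89 at 60 min was log2 -4.30, adjusted p = 5.23e-06. In the first round alone that in YSS37 was log2 -3.02, adjusted p = 1.21e-06.

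DIP5 was lower in YSS89 at every shared time, at time 0 (log2 -0.72, adjusted p = 0.0439), at 30 min (log2 -1.83, SE 0.26, adjusted p = 1.72e-05, 3.56-fold) and at 60 min (log2 -0.94, adjusted p = 0.0117). Normalized values of the strains did not overlap at any of the 3 times, although as deposited the highest YSS89 array at 60 min (37.6) stood level with the lowest YSS37 array (37.5). The responses differed at 30 min (log2 -1.11, SE 0.368, adjusted p = 0.042) and were not called different at 60 min (log2 -0.21, SE 0.368, adjusted p = 0.749). At 30 min the call of the response was lost when any 1 of 9 of the 12 arrays was left out (adjusted p up to 0.102). It was also lost with median centring (log2 -0.81, adjusted p = 0.137) and without the 2 arrays of low 25S signal (log2 -1.46, adjusted p = 0.0535). With the round as a block the direct difference was log2 -0.09, adjusted p = 0.947 at time 0, log2 -1.83, adjusted p = 0.0113 at 30 min and log2 -1.03, adjusted p = 0.0718 at 60 min. The call at time 0 was also lost when any 1 of 5 of the 6 arrays was left out (adjusted p up to 0.139), and without the 2 of low 25S signal it was log2 -0.38, adjusted p = 0.59. That at 60 min was lost without YSS89 replicate a (log2 -0.63, adjusted p = 0.0812) or YSS37 replicate b (log2 -0.83, adjusted p = 0.0504). The step from 30 to 60 min in YSS89 (log2 -1.05, adjusted p = 0.0152) missed the threshold without any 1 of 3 arrays (replicate b or c at 30 min, a at 60 min, adjusted p up to 0.109) and within 1 round (log2 -0.92, adjusted p = 0.0652).

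BAP2, the permease of leucine, isoleucine and valine, is also turned on by the SPS pathway. In YSS89 it read 536.9, 446.8 and 472.9 at time 0, 247.6, 265.8 and 229.8 at 20 min, 317, 252.5 and 256.5 at 30 min, 473.6, 365.5 and 427.3 at 40 min and 338.8, 283.3 and 294.9 at 60 min. For YSS37 BAP2 read 586.7, 561.6 and 566.6 at time 0, 392.3, 406 and 389.9 at 30 min and 405.6, 408.1 and 395.1 at 60 min. The fall was deepest at 20 min in YSS89, the arrays of 40 min overlapped time 0, and in YSS37 both later groups lay below time 0. BAP2 was lower in YSS89 at 20 min (log2 -0.93, SE 0.112, adjusted p = 8.33e-06), 30 min (log2 -0.70, adjusted p = 4.43e-05) and 60 min (log2 -0.63, adjusted p = 0.000139). At 40 min the change was not called (log2 -0.14, adjusted p = 0.326). In YSS37 it was lower at 30 min (log2 -0.48, adjusted p = 0.00308) and at 60 min (log2 -0.45, adjusted p = 0.00298). BAP2 was lower in YSS89 than in YSS37 at 30 min (log2 -0.39, adjusted p = 0.00923) and 60 min (log2 -0.35, adjusted p = 0.0268), without overlap. Its responses were not called different at 30 min (log2 -0.22, adjusted p = 0.366) or 60 min (log2 -0.18, adjusted p = 0.48). Both direct differences lost their calls with the round as a block (log2 -0.23, adjusted p = 0.399 at 30 min and log2 -0.19, adjusted p = 0.392 at 60 min). The one at 60 min also lost it within 1 round (log2 -0.20, adjusted p = 0.543) and when any 1 of 5 of the 6 arrays was left out (adjusted p up to 0.1). The one at 30 min missed it without YSS89 replicate b (log2 -0.33, adjusted p = 0.05). The fall of BAP2 from 40 to 60 min in YSS89 (log2 -0.49, adjusted p = 0.0237) missed it without any 1 of 4 of the 6 arrays (adjusted p up to 0.163), within 1 round (log2 -0.48, adjusted p = 0.115) and with median centring (log2 -0.46, adjusted p = 0.0693). The rise from 30 to 40 min (log2 0.56, adjusted p = 0.00411) missed it with only the groups compared in the fit (log2 0.56, adjusted p = 0.0615). At time 0 the strain difference was not called (log2 -0.16, adjusted p = 0.295), and with median centring it was log2 -0.61, adjusted p = 0.000908.

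TAT2, the high-affinity permease of tryptophan and tyrosine, was lower at every later time in YSS89. Its intensity was 114.8, 135.7 and 155.5 in YSS89 at time 0 and lay between 85.1 and 104.4 on the 12 later YSS89 arrays, all below those of time 0. On the 9 YSS37 arrays it lay between 90.8 and 113.9, and the 3 times overlapped. In YSS89 TAT2 was lower at 20 min (log2 -0.51, adjusted p = 0.00365) and 30 min (log2 -0.40, adjusted p = 0.00681), and likewise at 40 min (log2 -0.50, adjusted p = 0.00118) and 60 min (log2 -0.39, adjusted p = 0.00752). The changes in YSS37 were not called at 30 min (log2 0.10, adjusted p = 0.551) or 60 min (log2 -0.01, adjusted p = 0.934). Without both arrays of time 0 with low 25S signal, the changes in YSS89 were log2 -0.30, adjusted p = 0.252 at 20 min and log2 -0.18, adjusted p = 0.349 at 30 min. The later values were then log2 -0.28, adjusted p = 0.139 at 40 min and log2 -0.18, adjusted p = 0.371 at 60 min. With the round as a block the 4 values were log2 -0.33, adjusted p = 0.235, log2 -0.24, adjusted p = 0.264, log2 -0.34, adjusted p = 0.107 and log2 -0.24, adjusted p = 0.279, in order of time, and within 1 round these 4 calls were lost too. The response at 30 min was called lower in YSS89 (log2 -0.50, SE 0.158, adjusted p = 0.0341). Without those 2 arrays it was log2 -0.29, adjusted p = 0.341, with the round as a block log2 -0.34, adjusted p = 0.303 and with median centring log2 -0.31, adjusted p = 0.19. The call was also lost when any 1 of 8 of the 12 arrays was left out (adjusted p up to 0.0919). At time 0 TAT2 was not called between the strains (log2 0.30, adjusted p = 0.0523), but as deposited it was (log2 0.43, adjusted p = 0.00518).

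MUP1, the high-affinity methionine permease, fell at 20 min, came back and fell again at 60 min in YSS89. Its intensity there was 316.4, 232.9 and 317.8 at time 0, 145.6, 149.7 and 77.7 at 20 min, 278.4, 240.1 and 229.2 at 30 min, 342.3, 372.3 and 389.4 at 40 min and 154.2, 146.8 and 151.7 at 60 min. On the YSS37 arrays MUP1 was 214.7, 214.4 and 231.8 at time 0, 286.3, 366.2 and 270.2 at 30 min and 277.4, 207.2 and 159.9 at 60 min. The arrays of 20 and 60 min in YSS89 lay below all others of that strain, and those of 40 min lay above. In YSS37 the arrays of 30 min lay above time 0 while those of 60 min spread on both sides of it. MUP1 was lower in YSS89 at 20 min (log2 -1.17, SE 0.209, adjusted p = 0.000682) and at 60 min (log2 -0.84, SE 0.209, adjusted p = 0.00295). Its changes were not called at 30 min (log2 -0.00, adjusted p = 0.992) or 40 min (log2 0.49, adjusted p = 0.0622). With a filter on low values the value at 40 min was called (log2 0.49, adjusted p = 0.044). The rise from 20 to 30 min (log2 1.16, adjusted p = 0.000482) and the fall from 40 to 60 min (log2 -1.33, adjusted p = 0.000868) were called, each with no overlap of arrays. In YSS37 the change was not called at 30 min (log2 0.53, adjusted p = 0.0656) or 60 min (log2 0.02, adjusted p = 0.959), while the value at 30 min passed the threshold with the round as a block (log2 0.53, adjusted p = 0.0425). The step from 30 to 60 min in YSS89 (log2 -0.83, adjusted p = 0.0161) missed the threshold without replicate a at 30 min (log2 -0.75, adjusted p = 0.0661) or b at 60 min (log2 -0.81, adjusted p = 0.0558). The direct strain differences were not called at time 0 (log2 0.39, adjusted p = 0.172), 30 min (log2 -0.14, adjusted p = 0.604) or 60 min (log2 -0.46, adjusted p = 0.103). Neither was the difference of responses at 60 min (log2 -0.85, SE 0.295, adjusted p = 0.0581), which was called with a filter on low values (log2 -0.85, adjusted p = 0.0384).

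CAN1 and LYP1 take up basic amino acids, CAN1 mainly arginine and LYP1 lysine, and these 2 were the members that rose in YSS89 at 40 min. CAN1 read 44.9, 56.8 and 57.7 in YSS89 at time 0, 36, 29.3 and 31 at 20 min, 38.7, 55.4 and 47.4 at 30 min, 74.9, 59.4 and 65.4 at 40 min and 51.9, 57.2 and 61.7 at 60 min. In YSS37 CAN1 read 29.7, 29.2 and 26.8 at time 0, 38.4, 35.3 and 29.7 at 30 min and 50.9, 42.3 and 37.9 at 60 min. The YSS89 arrays of 20 min lay below time 0 and those of 40 min above it, and in YSS37 the arrays of 60 min lay above time 0. CAN1 was lower at 20 min (log2 -0.54, adjusted p = 0.0101) and higher at 40 min (log2 0.41, adjusted p = 0.0192) in YSS89, and higher at 60 min in YSS37 (log2 0.43, adjusted p = 0.0173). It was higher in YSS89 than in YSS37 at time 0 (log2 0.51, SE 0.138, adjusted p = 0.00806) and at 30 min (log2 0.37, adjusted p = 0.037), and not called at 60 min (log2 0.28, adjusted p = 0.136). The call in YSS89 at 40 min was lost without replicate a at time 0 (log2 0.31, adjusted p = 0.1) or at 40 min (log2 0.32, adjusted p = 0.099), and as deposited (log2 0.32, adjusted p = 0.0893). That in YSS37 was lost without replicate c at time 0 (log2 0.37, adjusted p = 0.0634) or a at 60 min (log2 0.32, adjusted p = 0.102). The call at 20 min was lost without the 2 arrays of low 25S signal (log2 -0.35, adjusted p = 0.326). The call of the step from 20 to 30 min (log2 0.53, adjusted p = 0.00971) was lost without replicate b at 30 min (log2 0.41, adjusted p = 0.0651) and within 1 round (log2 0.23, adjusted p = 0.525). The differences between strains were not called with the round as a block (log2 0.53, adjusted p = 0.388 at time 0 and log2 0.54, adjusted p = 0.182 at 30 min). The one at time 0 was log2 0.32, adjusted p = 0.332 without the 2 arrays of low 25S signal. The one at 30 min was also lost when any 1 of 3 of the 6 arrays was left out (adjusted p up to 0.186).

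LYP1 read 194.2, 256 and 156.1 in YSS89 at time 0, 178.5, 134.5 and 206.2 at 20 min, 180, 214.1 and 219.4 at 30 min, 271.6, 278 and 261.7 at 40 min and 247, 248.2 and 249.4 at 60 min. In YSS37 LYP1 read 174.1, 147.9 and 164.3 at time 0, 171.3, 159.1 and 165.4 at 30 min and 187.6, 159.1 and 80.8 at 60 min. The arrays of 40 min in YSS89 lay above those of every other group, and replicate c of YSS37 at 60 min was the lowest of all 24. LYP1 was higher in YSS89 at 40 min (log2 0.61, SE 0.219, adjusted p = 0.0288), and this call was lost when any 1 of 5 of the 6 arrays was left out (adjusted p up to 0.151). It was also lost without the 2 arrays of low 25S signal (log2 0.65, adjusted p = 0.102), with the round as a block (log2 0.53, adjusted p = 0.11) and as deposited (log2 0.45, adjusted p = 0.116). At 60 min LYP1 was 1.82-fold higher in YSS89 than in YSS37 (log2 0.86, SE 0.219, adjusted p = 0.00679). The call was lost with only the groups compared in the fit (log2 0.86, SE 0.274, adjusted p = 0.0579). Without replicate c of YSS37 this difference was log2 0.52, adjusted p = 0.043, and that array is the only YSS37 array of the second round. With the round as a block the difference was log2 1.42, adjusted p = 0.00167 at 60 min and log2 1.29, adjusted p = 0.0117 at 30 min. The block links the strains through that low array alone, so both blocked values rest on it. Without the block the value at 30 min was not called (log2 0.39, adjusted p = 0.154).

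MEP2, the high-affinity ammonium permease that is also known as an ammonium sensor of filamentous growth, showed 0 called changes over time in either strain by limma, with 0 at an unadjusted p under 0.05 as well. Its intensity was 24, 27.8 and 31.8 in YSS89 at time 0 and 16.3 to 28.4 on the 12 later YSS89 arrays, against 13.5 to 18.9 on the 9 YSS37 arrays. It was higher in YSS89 than in YSS37 at 60 min (log2 0.59, SE 0.196, adjusted p = 0.031), although replicate b of YSS89 (17.5) fell within the range of YSS37 (13.8 to 17.7). At time 0 (log2 0.44, adjusted p = 0.103) and 30 min (log2 0.37, adjusted p = 0.128) the arrays did not overlap and the difference was not called, but as deposited that at time 0 was (log2 0.75, adjusted p = 0.00482). The call at 60 min was lost with the round as a block (log2 0.76, adjusted p = 0.131), with median centring (log2 0.47, adjusted p = 0.0719) and when any 1 of 4 of the 6 arrays was left out (adjusted p up to 0.126).

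**Figure D2:**
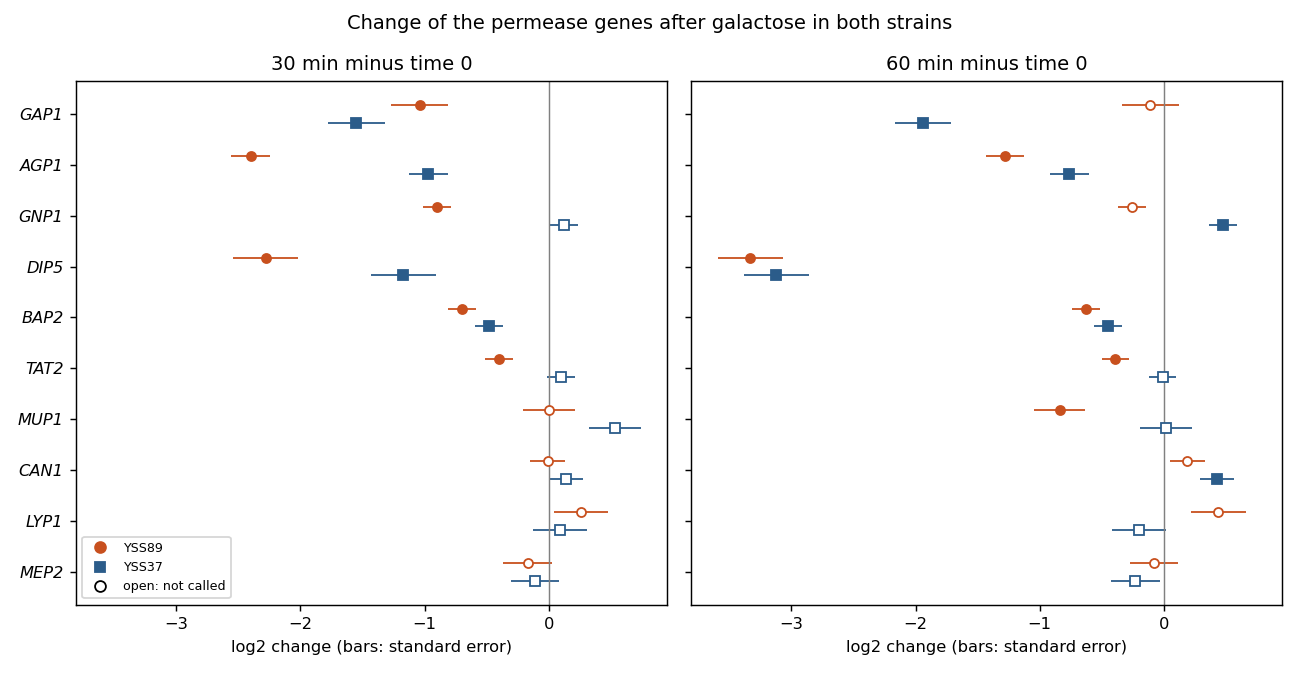
Log2 change from time 0 (horizontal axis) of the 10 permease genes at 30 min (left) and 60 min (right) in YSS89 (orange circles) and YSS37 (blue squares), with the standard error as bars; filled symbols passed an adjusted p under 0.05. DIP5 has the lowest value at 60 min in both strains, -3.33 in YSS89 and -3.12 in YSS37, while GAP1 stands at -0.11 in YSS89 and -1.94 in YSS37.

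Set directly against YSS37, YSS89 had 2 of the 10 permease genes higher (GNP1 and CAN1) and 2 lower (GAP1 and DIP5) at time 0, where 17.8% of all genes were higher and 10.2% lower, and 1 was called without the 2 arrays of low 25S signal. At 30 min 1 was higher (CAN1) and 4 lower (DIP5, AGP1, GNP1 and BAP2), beside 23.4% and 20% of all genes. At 60 min 3 were higher (LYP1, GAP1 and MEP2) and 3 lower (DIP5, AGP1 and BAP2), beside 16.5% and 11.4%. DIP5 was the 1 member called at all 3 times. The rounds share strains only through replicate c of YSS37 at 60 min. With the round as a block the calls numbered 0 at time 0, 3 at 30 min (AGP1, DIP5 and LYP1) and 1 at 60 min (LYP1). Every strain difference with that block, called or not, rests on this linking replicate. For LYP1 it read 80.8, against 187.6 and 159.1 in YSS37 replicates a and b at 60 min. The chip lot names are spelled differently for the strains, and whether the lots differ is not known.

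Whether the response, here the change from time 0 after galactose was added, differed between the strains was tested as a difference of these changes. At 30 min it was lower in YSS89 for AGP1, DIP5, GNP1 and TAT2, 4 of the 10, and higher for 0 by limma, also at an unadjusted p, where 11% of all genes were lower and 6.72% higher. The median difference of the 10 genes at 30 min was -0.36, beside -0.026 over all genes, and 8 of the 10 values were negative. The calls at 30 min numbered 2 (AGP1 and GNP1) without the 2 arrays of low 25S signal and with median centring. At 60 min GAP1 was higher and GNP1 lower, 1 each, beside 5.45% and 8.42% of all genes. AGP1 and GNP1 at 30 min and GAP1 and GNP1 at 60 min kept their calls in every alternative run, the hybridization round as a block among them. A value within 1 round could not be had, since no round holds both strains at time 0. YSS37 was not sampled at 20 or 40 min, so the dip at 20 min and the return at 40 min were seen in YSS89 alone and were not set against YSS37.

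**Figure D3:**
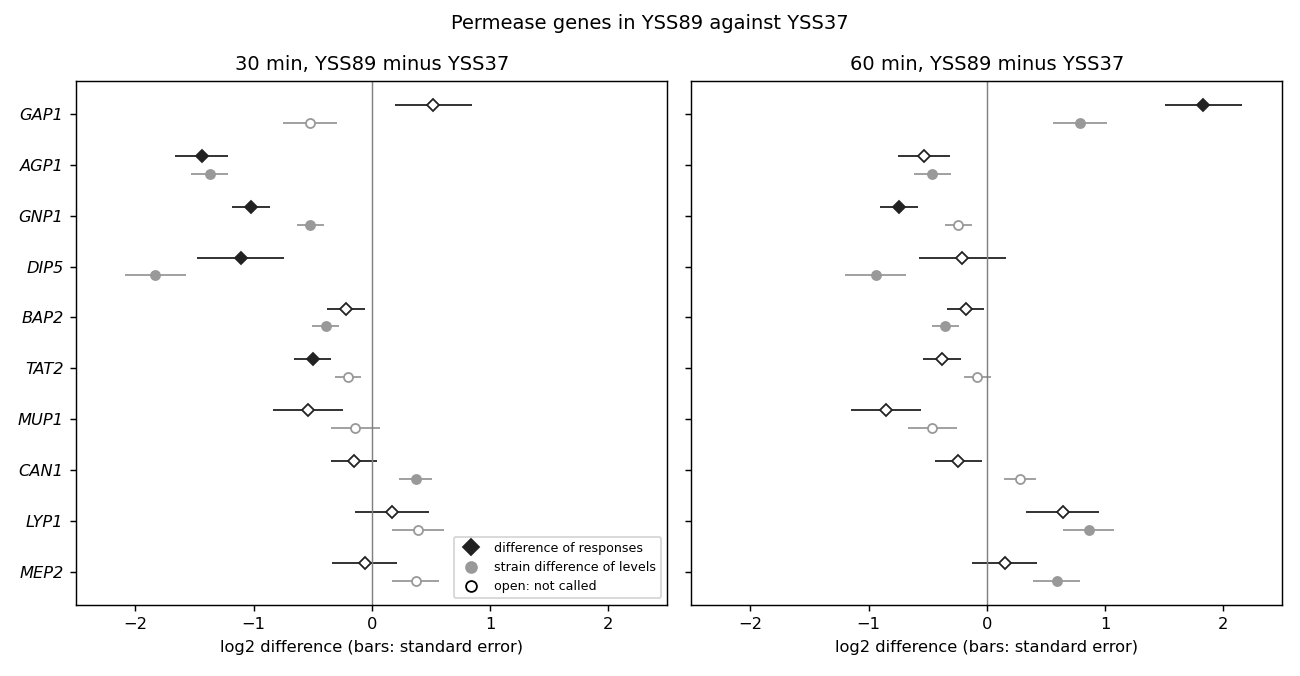
Log2 differences of YSS89 minus YSS37 (horizontal axis) at 30 min (left) and 60 min (right) for the 10 permease genes, as the difference of responses (black diamonds) and of levels (grey circles), with the standard error as bars; filled symbols passed an adjusted p under 0.05. GAP1 has the highest response difference at 60 min, 1.83, and AGP1 the lowest at 30 min, -1.44.

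Ranked by their mean log2 level over the 8 groups, the genes had different orders. AGP1, TAT2 and MEP2 were highest in YSS89 at time 0, and BAP2, GAP1 and DIP5 in YSS37 at time 0. Of these AGP1 and GAP1 were lowest in YSS89 at 30 min, BAP2 and TAT2 in YSS89 at 20 min, DIP5 in YSS89 at 60 min and MEP2 in YSS37 at 60 min. GAP1 in YSS37 at time 0 (6.55) stood apart from its next group, YSS89 at time 0 (5.51), and every later neighbour in its order overlapped. For DIP5 YSS37 at time 0 (8.68) stood apart from YSS89 at time 0 (7.95), YSS37 at 30 min (7.50) from YSS89 at 30 min (5.67), and YSS89 at 40 min (5.35) from YSS89 at 60 min (4.62). MUP1, CAN1, LYP1 and GNP1 were highest in YSS89 at 40 min, where LYP1 alone did not overlap with its neighbour. All neighbours of MEP2 and of TAT2 overlapped. Over the 8 group means the 10 genes made 45 pairs, with Pearson correlations between -0.77 (DIP5 and CAN1) and 0.77 (AGP1 and BAP2), a median of 0.07, and 20 below 0. These means share arrays, rounds and the normalization, and the correlations are given as a description.

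The genes of the whole array most like each permease gene over the 8 group means were also listed, 3 each, by Pearson correlation. For DIP5 they were AFR1 (0.995), CRG1 (0.994) and CSR2 (0.992), for AGP1 CMP2 (0.987), COG7 and YDL241W (0.977 each), and for GAP1 ATF1 (0.984), MMT2 (0.981) and CRD1 (0.977). For GNP1 they were DSD1 (0.978), RAD16 (0.930) and ERG24 (0.919), for BAP2 VHR1 (0.944), SUT1 (0.937) and JSN1 (0.926), and for TAT2 DIB1 (0.960), DPM1 (0.942) and IPP1 (0.939). For CAN1 they were PRR1 (0.974), PAL1 (0.973) and SFP1 (0.964), for LYP1 OCA2 (0.986), DNF3 (0.969) and MCM2 (0.966), and for MEP2 SNR71 (0.974), GAS5 (0.959) and SFT2 (0.948). MUP1 had the loosest likeness, with YJR154W (0.891), RIM1 and MID2 (0.887 each). None of the other 9 permease genes was among the 3 nearest of any, and CSR2, near DIP5, encodes an adaptor of the ubiquitin ligase Rsp5.

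Of 11 further amino acid permease genes of the plasma membrane, 8 were lower and 1 higher in YSS89 at 60 min, and 7 lower and 1 higher in YSS37. Over all genes 19.8% were lower and 23.9% higher in YSS89, and 20.5% and 21.1% in YSS37. The median log2 changes of the 11 were -1.18 in YSS89 and -0.65 in YSS37. Some of the lower genes read low at 60 min, where the 25th percentile of all values was 6.2. AGP2, AGP3 and ALP1 had means of 5.8, 6.233 and 8.3 in YSS89, and 6.1, 6.3 and 14.33 in YSS37. The proline permease gene PUT4 fell in YSS89 to 297.3, 320.9 and 357.4 at 60 min, against 1789.8, 1279.4 and 1264.5 at time 0 (log2 -2.49, adjusted p = 3.65e-08). In YSS37 PUT4 fell to 421.9, 415.6 and 233.5, against 1629.5, 1264.8 and 1253.6 (log2 -2.13, adjusted p = 3.81e-07). ALP1, for basic amino acids, and MMP1, for S-methylmethionine, also fell in both strains, with log2 changes of -1.90 and -1.68 in YSS89 and -1.20 and -1.22 in YSS37. The histidine permease gene HIP1 was the 1 that rose, in YSS89 (log2 0.36, adjusted p = 0.00837) and in YSS37 (log2 0.26, adjusted p = 0.0498). TAT1, a tyrosine permease gene, fell in YSS89 (log2 -1.34, adjusted p = 1e-06) and was not called in YSS37 (log2 0.02, adjusted p = 0.933). The difference of these responses was called (log2 -1.36, adjusted p = 0.000433). At time 0 TAT1 was called higher in YSS89, at 222.7, 252.5 and 317.6, where replicates b and c are those of low 25S signal. Over the 11 genes the response at 60 min was called lower in YSS89 for TAT1 and BAP3 and higher for AGP2, beside 8.42% and 5.45% of all genes. AGP2 was called lower in YSS89 at time 0 (mean 15.77, against 25.8 in YSS37). It ended at the low means given above in both strains, so its response difference reflects the starting levels. The alternative runs were not read for single genes of this or the other lists. Between 30 and 40 min 4 of the 11 rose in YSS89 (SAM3, BAP3, TAT1 and HIP1) and 0 fell by limma, also at an unadjusted p, beside 3.59% and 1.75% of all genes. At 20 min 7 of the 11 were lower than at time 0 in YSS89 and 0 higher by limma (1 at an unadjusted p), beside 10.4% and 7.6% of all genes. The lowest were SAM3 (log2 -1.81, adjusted p = 4.2e-05), BAP3 (log2 -1.43, adjusted p = 0.000108) and TAT1 (log2 -1.32, adjusted p = 6e-06).

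**Figure D4:**
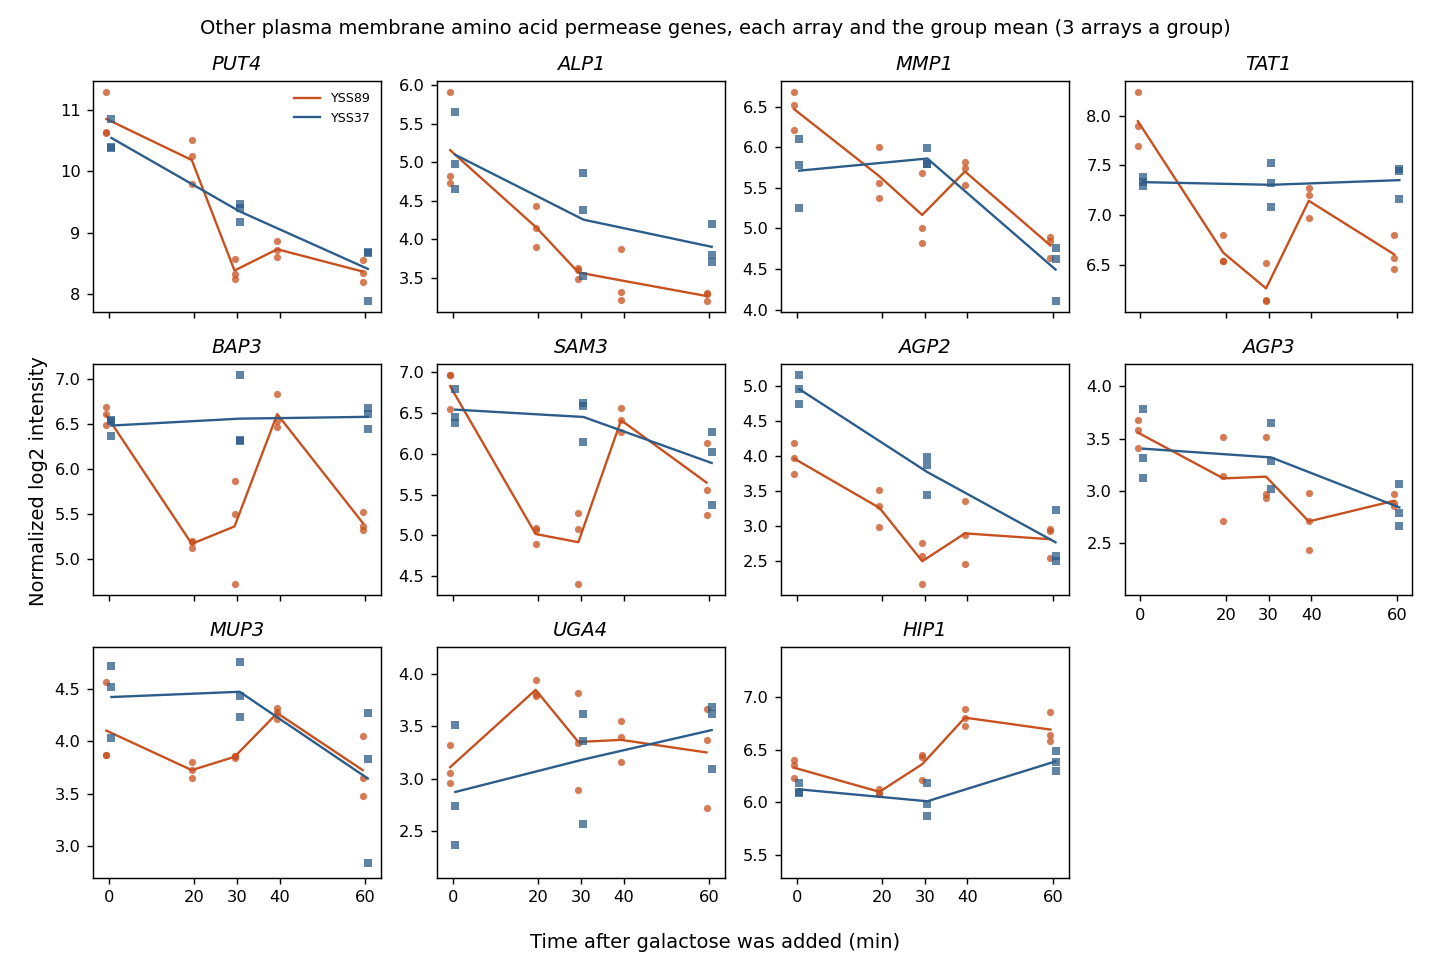
Normalized log2 intensity (vertical axis, with its own range in each panel) of 11 further amino acid permease genes against minutes after galactose was added, for YSS89 (orange circles) and YSS37 (blue squares); points are single arrays and lines join group means of 3 arrays. PUT4 and ALP1 end lower in both strains, BAP3, SAM3 and TAT1 dip at 20 and 30 min in YSS89 and stand higher at 40 min, and HIP1 ends higher in both.

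Genes around the permeases were counted the same way at 60 min, when 19.8% of all genes were lower and 23.9% higher in YSS89. In YSS37 these shares were 20.5% and 21.1%. Of 10 genes of the SPS pathway 5 were higher and 0 lower by limma (1 at an unadjusted p) in YSS89 (median 0.32). The highest were the cofactor gene DAL81 (log2 0.72, adjusted p = 0.000243), the sensor gene PTR3 (log2 0.62, adjusted p = 0.00139), ASI3 (log2 0.57, adjusted p = 0.00165) and STP1 (log2 0.47, adjusted p = 0.0406). In YSS37 0 of the 10 were higher by limma (1 at an unadjusted p) and 2 were lower (ASI2 and SSY1), with PTR3 not called (log2 -0.23, adjusted p = 0.2). The response of PTR3 was higher in YSS89 (log2 0.85, adjusted p = 0.0079). Of 8 regulators of nitrogen catabolite repression 2 were higher in YSS89 (NPR3, log2 0.63, adjusted p = 0.00514, and NPR2, log2 0.57, adjusted p = 0.0204) and 0 lower by limma, also at an unadjusted p. In YSS37 1 was higher (GAT1) and 1 lower (NPR1). The activator gene GLN3 was not called at 60 min in YSS89 (log2 0.01, adjusted p = 0.968) or YSS37 (log2 0.01, adjusted p = 0.971). Of 15 measured genes for enzymes of nitrogen metabolism 8 were lower and 1 higher (GLT1) in YSS89, and 5 lower and 1 higher in YSS37. The glutamate dehydrogenase gene GDH2 fell in YSS89 (log2 -2.69, adjusted p = 1.23e-10) and in YSS37 (log2 -2.51, adjusted p = 9.41e-10). The proline oxidase gene PUT1 fell in YSS89 (log2 -2.45, adjusted p = 7.94e-08) and was not called in YSS37 (log2 -0.08, adjusted p = 0.807). For PUT1 the responses had a called difference (log2 -2.37, adjusted p = 9.65e-05). CAR2, for arginine and ornithine use, fell in YSS89 (log2 -2.28, adjusted p = 6.08e-08) and in YSS37 (log2 -0.82, adjusted p = 0.00425).

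Of 10 transporter genes for other nitrogen compounds 3 were higher (FUR4, OPT1 and FUI1) and 2 lower (PTR2 and FCY2) in YSS89 at 60 min, and 4 higher and 2 lower in YSS37. The uracil permease gene FUR4, a neighbour of the GAL1 gene cluster, read 242, 270 and 239.8 in YSS89 at 60 min, against 41.7, 35.6 and 21.2 at time 0 (log2 3.10, adjusted p = 2.07e-10). In YSS37 FUR4 read 261, 263.5 and 278.5, against 23.8, 17.9 and 25.4 (log2 3.31, adjusted p = 2.33e-10). The cytosine and purine permease gene FCY2 was lower in YSS89 (SE 0.135, adjusted p = 6.52e-06, 2-fold). In YSS37 FCY2 rose (log2 0.72, adjusted p = 0.000239), and the responses differed (log2 -1.72, adjusted p = 9.44e-06). MEP1 and MEP3, the other ammonium permease genes, were not called in YSS89 (log2 -0.31, adjusted p = 0.248 and log2 0.22, adjusted p = 0.412) or in YSS37 (log2 -0.36, adjusted p = 0.177 and log2 -0.28, adjusted p = 0.288). Of 16 genes for permease exit from the endoplasmic reticulum and for ubiquitylation 2 were lower in YSS89, the Rsp5 adaptor genes CSR2 (log2 -3.54, adjusted p = 7.77e-11) and ECM21 (log2 -0.70, adjusted p = 0.00998), and 0 higher by limma (1 at an unadjusted p). In YSS37 CSR2 (log2 -2.71, adjusted p = 1.07e-08) and ART10 (log2 -0.67, adjusted p = 0.00457) were lower and BUL2 (log2 0.67, adjusted p = 0.0065) higher. Of 11 measured vacuolar amino acid transporter genes 4 were higher (AVT4, YPQ1, AVT5 and VBA1) and 1 lower (AVT6) in YSS89, and 1 higher (YPQ1) and 2 lower (AVT6 and AVT7) in YSS37. At 60 min 19.8% of all genes were lower and 23.9% higher in YSS89, and 20.5% and 21.1% in YSS37, so shares in these lists near those values are those of the whole array.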

How the data were processed

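Each of the 24 one-colour arrays has linear intensities, 1 for a probe set, as deposited by the authors. Its 2% trimmed mean was 100 to 101.6 on every array, so arrays had been scaled before deposit; the summary algorithm is not given in the sources used here. Hybridization rounds were read from the deposited instrument files. Intensities were transformed as log2 of the value plus 1.4 (the table's 10th percentile). Array medians ran from 4.717 to 5.154, so arrays were quantile normalized, without 60 control probe sets. Probe sets naming 1 gene (6504) gave 5656 genes by the brightest probe set; 328 naming several and 2443 naming none were not used. Names came from the platform annotation. Fold changes are on this log2 scale and understate changes of low genes. Group means were fitted over all 24 arrays with limma 3.58.1 in R 4.3.3, for 16 comparisons, adjusted by the Benjamini-Hochberg method over 5656 genes. The fit was tested on simulated data. The number of arrays limits the precision (median SE 0.171, and 0.242 for differences of responses). Replicates correlated at 0.968 to 0.991, and 0 pairs were identical. Replicate letters were not taken as pairs: deviations of same-letter arrays correlated above 0.1 in every pair in 1 of 14 comparisons. The members, the 7 lists and the comparisons were chosen with earlier results of these data known. Named genes are all 10 members, the 3 genes nearest to each, and from each list up to 4 genes at either end of the called changes in YSS89 at 60 min, with the same genes in YSS37; the response differences of list genes, SAM3, BAP3, GLN3, MEP1, MEP3, ASI2, SSY1, GAT1, NPR1, ART10, BUL2 and AVT7 were added after their values were seen. Alternatives were other normalizations, pseudocounts, filters, probe set rules and priors, a replicate block, the round as a block or alone, only the groups compared, and arrays left out. They were read for the 10 members and as counts over all genes, not for single list genes. AGP2 and AGP3 were likewise named after their values were seen.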

Additional observations from a re-analysis of the deposited data

Results flagged for a closer look

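The responses, as changes from time 0 after galactose was added, differed between YSS89 and YSS37 by limma for 4 permease genes at 30 min and 2 at 60 min. At 30 min the difference, YSS89 minus YSS37 on the log2 scale, was -1.44 for AGP1, -1.02 for GNP1, -1.11 for DIP5 and -0.50 for TAT2. At 60 min it was 1.83 for GAP1 and -0.74 for GNP1. The strain differences at time 0, log2 -1.04 for GAP1 and log2 0.50 for GNP1, enter these values. Both strains were hybridized together in 1 of the 4 rounds, through 1 YSS37 array.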

How the results depend on the processing

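Of 160 values of the 10 genes over 16 comparisons 72 were called. All 72 kept their direction in every alternative run that gave them a value, and 35 kept their call in each such run. Within 1 round 57 of the 72 had a value, and without the 2 arrays of low 25S signal 34 had one. The replicate block, the prior, the filter, the probe set rules and the fit of only the groups compared leave the log2 value unchanged. In those runs a direction could not turn. With only the groups compared in the fit 20 of the 72 calls were lost, and the genes called numbered 3 for the step from 30 to 60 min in YSS89, 2 for the strain difference at time 0, 1 at 60 min, and 1 for the step from 40 to 60 min. With median centring they numbered 2 for the response difference at 30 min. Blocked by round they numbered 3 for YSS89 at 20 min, and 0, 3 and 1 for the strain difference at time 0, 30 and 60 min. Within 1 round they numbered 3 for YSS89 at 20 min, 3 at 40 min, 1 for the strain difference at 60 min, 2 for the step from 20 to 30 min and 1 for that from 40 to 60 min. Without the 2 arrays of low 25S signal they numbered 3 for YSS89 at 20 min, 3 at 40 min, 1 for the strain difference at time 0 and 2 for the response difference at 30 min. With each array left out in turn they ran from 2 to 4 for the response difference at 30 min, 2 to 5 for the strain difference at 60 min, 3 to 5 at 30 min, 3 to 4 for the step from 30 to 60 min and 1 to 3 for that from 40 to 60 min in YSS89. Counts of calls over all genes, set against those under the alternatives that moved them by over 1.5 times, were 1519 against 820 for the change in YSS37 at 30 min, 164 against 44 to 102 for the step from 30 to 60 min in YSS37, 1016 against 172 to 656 for the change in YSS89 at 20 min and 1579 against 31 to 692 for the strain difference at time 0. Further such counts were 1002 against 426 to 516 for the difference of responses at 30 min, 784 against 208 to 512 for the difference of responses at 60 min, 2601 against 1066 to 1618 for the change in YSS89 at 30 min and 2565 against 1202 to 1694 for the change in YSS89 at 40 min. Others were 2472 against 1157 to 1555 for the change in YSS89 at 60 min, 2455 against 593 for the strain difference at 30 min, 1577 against 204 to 455 for the strain difference at 60 min and 432 against 237 to 277 for the step from 30 to 60 min in YSS89. The rest were 1211 against 238 to 776 for the step from 20 to 30 min in YSS89, 302 against 117 to 187 for the step from 30 to 40 min in YSS89 and 118 against 26 to 68 for the step from 40 to 60 min in YSS89. The causes were not tested. Letters were not taken as pairs: with them as a replicate block all 72 calls were kept, and GAP1 at 30 min passed the threshold between strains (-0.52, adjusted p = 0.0246 by limma).

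Of 3014 recomputed values 93 had the opposite sign, 0 of them called in either fit by limma. With the values as deposited the changes from time 0 were 0.05 for MEP2 in YSS37 at 30 min, -0.07 for MUP1 in YSS37 at 60 min and -0.15 for GNP1 in YSS89 at 40 min. With the values as deposited the steps were 0.01 for MEP2 from 20 to 30 min in YSS89. With the values as deposited the strain differences were 0.01 for TAT2 at 60 min. With the values as deposited the response differences were -0.19 for MEP2 at 60 min. With median centring the changes from time 0 were -0.09 for GNP1, -0.05 for TAT2 and -0.10 for LYP1 in YSS37 at 30 min, -0.25 for MUP1 in YSS37 at 60 min and -0.05 for GNP1 in YSS89 at 40 min. With median centring the steps were -0.02 for BAP2 from 30 to 60 min in YSS37 and -0.00 for GAP1 from 30 to 40 min in YSS89. With median centring the strain differences were -0.26 for AGP1 and -0.08 for LYP1 at time 0. With median centring the response differences were 0.00 for BAP2 at 30 min and 0.18 for DIP5 and 0.12 for BAP2 at 60 min. Blocked by round, the changes from time 0 were 0.14 for LYP1 in YSS37 at 60 min, 0.04 for MEP2 in YSS89 at 20 min, 0.03 for MUP1, 0.15 for CAN1 and 0.08 for MEP2 in YSS89 at 30 min, -0.07 for GNP1 and 0.00 for MEP2 in YSS89 at 40 min and 0.05 for GAP1 and 0.17 for MEP2 in YSS89 at 60 min. Blocked by round, the steps were 0.05 for LYP1 from 30 to 60 min in YSS37 and 0.04 for MEP2 from 20 to 30 min in YSS89. Blocked by round, the strain differences were -0.06 for AGP1 and 0.01 for BAP2 at time 0, 0.56 for MUP1 at 30 min and 0.07 for MUP1 at 60 min. Blocked by round, the response differences were 0.01 for CAN1 and 0.19 for MEP2 at 30 min. Within 1 hybridization round the changes from time 0 were 0.14 for LYP1 in YSS37 at 60 min, 0.03 for MUP1 and 0.13 for MEP2 in YSS89 at 30 min, -0.03 for GNP1 and 0.25 for MEP2 in YSS89 at 40 min and 0.22 for MEP2 in YSS89 at 60 min. Within 1 hybridization round the steps were 0.05 for LYP1 from 30 to 60 min in YSS37 and 0.26 for MEP2 from 20 to 30 min in YSS89. Without both arrays of low 25S signal the changes from time 0 were 0.18 for CAN1 in YSS89 at 30 min, -0.03 for GNP1 in YSS89 at 40 min and 0.34 for GAP1 and 0.06 for MEP2 in YSS89 at 60 min. Without both arrays of low 25S signal the strain differences were -0.11 for AGP1 at time 0. Without both arrays of low 25S signal the response differences were 0.05 for CAN1 and 0.08 for MEP2 at 30 min. With each array left out in turn, the changes from time 0 were -0.07 to 0.07 for TAT2, -0.17 to 0.19 for MUP1 and -0.41 to 0.14 for LYP1 in YSS37 at 60 min, -0.20 to 0.07 for MEP2 in YSS37 at 30 min, -0.15 to 0.08 for MUP1 and -0.12 to 0.12 for CAN1 in YSS89 at 30 min, -0.33 to 0.10 for GAP1 and -0.19 to 0.10 for MEP2 in YSS89 at 60 min, -0.26 to 0.11 for LYP1 in YSS89 at 20 min and -0.08 to 0.09 for GNP1 in YSS89 at 40 min. With each array left out in turn, the steps were -0.50 to 0.05 for LYP1 from 30 to 60 min in YSS37, -0.15 to 0.10 for MEP2 from 20 to 30 min in YSS89, -0.04 to 0.06 for TAT2 and -0.02 to 0.27 for MEP2 from 30 to 60 min in YSS89, -0.11 to 0.24 for GAP1 and -0.26 to 0.10 for MEP2 from 30 to 40 min in YSS89 and -0.01 to 0.35 for MEP2 from 40 to 60 min in YSS89. With each array left out in turn, the strain differences were -0.10 to 0.18 for AGP1 at time 0. With each array left out in turn, the response differences were -0.24 to 0.03 for MEP2 and -0.01 to 0.36 for LYP1 at 30 min and -0.50 to 0.10 for DIP5 at 60 min.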
